A study of Arabidopsis thaliana with 12 samples.

Results

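Transcript levels in rosette leaves of the Arabidopsis thaliana double mutant ka120 pad4 were compared with those of the wild type Col-0, across all genes of the raw count table. The members of the comparison were the 3 ka120 pad4 and the 3 Col-0 libraries, 6 of the 12 libraries of the series. The other 6 were 3 of the single mutant ka120 and 3 of ka120 ndr1. The question was which differences from Col-0 are seen without PAD4 function, so the ka120 libraries served as a second point of comparison. All mutants are in the Col-0 background, and ka120 pad4 carries the ka120 mutation as well as pad4. Plants were 3 weeks old, untreated and raised on soil at 22 °C in a day of 16 h light and 8 h dark. The labels name no alleles and a pad4 single mutant was not analysed here, so an effect of pad4 in plants with intact KA120 cannot be told apart from its effect in ka120. Whether replicate libraries stand for different plants is not stated, so each p-value reflects only how much the samples vary, which may be technical.

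PAD4 is a lipase-like protein that acts with EDS1. Together they relay signals from immune receptors of the TIR type, a class of intracellular NLR proteins, to helper NLRs of the ADR1 family, and they promote accumulation of the defence hormone salicylic acid. KA120 is a nuclear transport receptor of the importin-beta family that restrains immunity in leaves. Salicylic acid acts through NPR1 and TGA factors on pathogenesis-related (PR) genes, and secretion of PR proteins loads the folding machinery of the endoplasmic reticulum (ER).

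Library totals were 71290882 to 71948016 counts in ka120 pad4, 78305746 to 85884840 in ka120 and 70386729 to 80707416 in Col-0, and 22351 of 34262 genes passed the filter on low counts. Levels are CPM, that is normalised counts scaled to the effective library size, for libraries 1, 2 and 3 in that order. On the first principal component, which held 54.5% of the variance, ka120 pad4 libraries lay at -3.195, 31.66 and 13.95, ka120 libraries at 51.32 to 75.16 and Col-0 libraries at -116.3 to -112.4. The 3 ka120 pad4 libraries were thus spread along one axis, with replicate 1 nearest Col-0 and replicate 2 nearest ka120. Leaf mesophyll markers were abundant throughout, and 4 of 5 were called lower in ka120 pad4: the list summed to 40349.9, 33443 and 38508 CPM in ka120 pad4 and 52404, 55689 and 52870.4 CPM in Col-0. Root markers summed to 54.9, 51.6 and 51.7 CPM in ka120 pad4 and 57.6, 51.3 and 59.1 CPM in Col-0; 1 of 3 tested, WOX5, was called higher and PLT1 was at 0 counts in both groups. Of 4 floral organ markers 3 were higher in ka120 pad4, though low, and the list summed to 8.02, 6.72 and 8.32 CPM in ka120 pad4 and 2.15, 2.76 and 1.36 CPM in Col-0. The part of floral tissue in other results was not tested. In these bulk samples, fewer cells of a type and less RNA per cell cannot be told apart.

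The mutated loci were read first. AT3G08960, an ARM repeat protein gene taken here from background knowledge to be KA120, had 4.83, 3.64 and 3.96 CPM in ka120 pad4, 4.99, 4.80 and 6.03 CPM in ka120 and 24.2, 33.0 and 30.4 CPM in Col-0. Both mutants lay below every Col-0 library (log2 fold change of ka120 pad4 against Col-0 -2.82 ± 0.15, adjusted p = 1.58e-07; edgeR quasi-likelihood test, Benjamini-Hochberg over all tested genes, as for every adjusted p below). PAD4 transcript was not lost in the double mutant. It had 7.73, 19.1 and 11.2 CPM in ka120 pad4, 94.0, 107 and 54.6 CPM in ka120 and 5.26, 4.60 and 5.54 CPM in Col-0, so its log2 fold change was 1.303 ± 0.32 against Col-0 (adjusted p = 0.00625) and -2.75 ± 0.32 against ka120. Counts over a whole gene do not show whether a transcript is functional, and the labels do not place the pad4 lesion, so these values do not check the pad4 label.

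A gene was called changed at an adjusted p under 0.05. Against Col-0, 9378 of 22351 genes were called in ka120 pad4, which is 42.0% of those tested. Of these 4831 were higher (21.6%) and 4547 lower (20.3%). With a change of at least 2-fold there were 1629 higher (7.29%) and 853 lower (3.82%) genes. At an unadjusted p under 0.05 there were 11140 genes. This split rests on the scaling: the TMM factors were 1.005 to 1.042 in ka120 pad4 and 0.8428 to 0.874 in Col-0. With library totals alone, an alternative added after these factors were seen, the median log2 fold change of all genes moved to 0.27, against 0.027 with TMM, and 9336 genes were called higher and 2286 lower. Changes below are relative to the TMM centring. In ka120, which shares the Col-0 libraries, 12276 genes were called against Col-0 (54.9%), 6252 higher (28.0%) and 6024 lower (27.0%).

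The direct comparison of ka120 pad4 with ka120 called 2196 genes higher (9.83%) and 1876 lower (8.39%). At least 2-fold changes were 178 higher (0.796%) and 483 lower (2.16%). These counts leaned on single libraries: they fell to 1340 higher and 1060 lower without ka120 pad4 replicate 1, to 1336 and 1079 without ka120 pad4 replicate 3, to 1224 and 981 without ka120 replicate 1, and to 1059 and 826 without ka120 replicate 2. Where a list count from this comparison is given, it is therefore set beside its range when any 1 of its 6 libraries was left out. Every low end quoted came without ka120 pad4 replicate 1 or 3, or ka120 replicate 1 or 2. For some genes, named below with those back near Col-0, the ka120 libraries stood apart from every other library. Whether processing of the ka120 libraries enters these counts was not tested. The 30 gene lists, each set beside the share and the median of all tested genes, are summarised in the plot of lists.

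**Figure D1:**
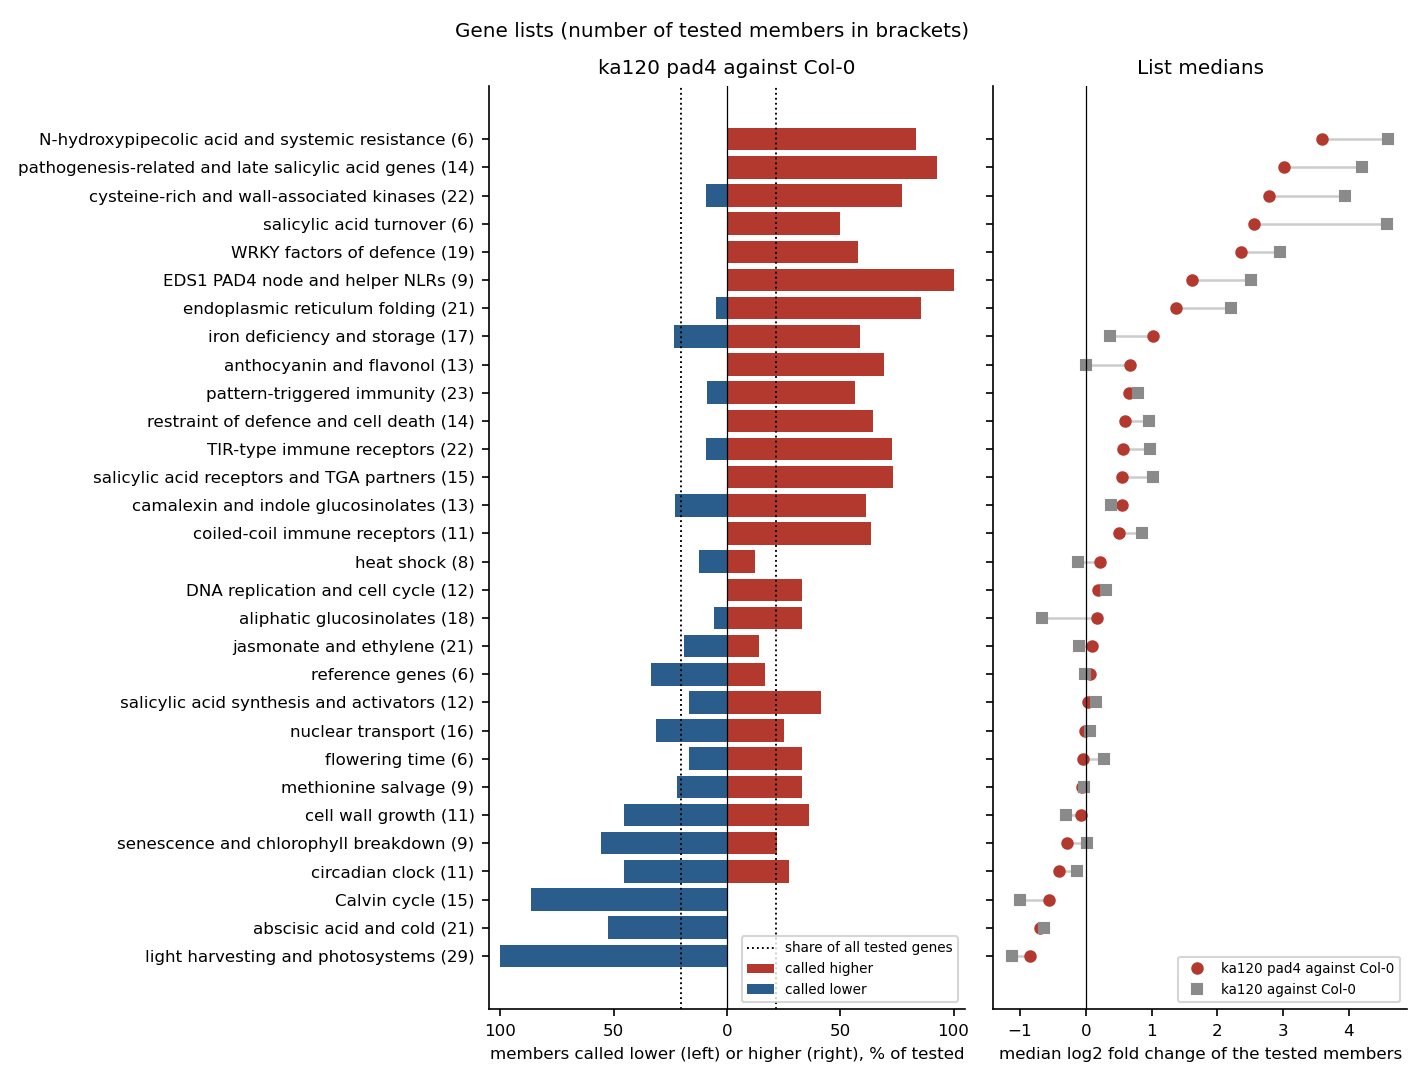
Gene lists in ka120 pad4 against Col-0. Left, the percent of tested members called higher (red, to the right) or lower (blue, to the left), with dotted lines at the shares of all tested genes (21.6% higher, 20.3% lower). Right, the median log2 fold change of the tested members in ka120 pad4 against Col-0 (red circles) and in ka120 against Col-0 (grey squares), which share the Col-0 libraries. Most defence lists and the ER folding list lie to the right in both with smaller medians in ka120 pad4, photosynthesis lists lie to the left, and iron and anthocyanin lists have larger medians in ka120 pad4.

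The EDS1 and PAD4 node was higher throughout in the double mutant. All 9 of 9 tested members of the node and helper NLR list were called higher than in Col-0, with a median log2 fold change of 1.62, beside 2.51 in ka120 against Col-0. PAD4, the mutated locus itself, is counted among the 9 members. EDS1 itself had 32.1, 83.2 and 41.9 CPM in ka120 pad4, 127, 129 and 77.4 CPM in ka120 and 22.4, 20.6 and 23.1 CPM in Col-0 (against Col-0 1.25 ± 0.32, adjusted p = 0.00691). Each ka120 pad4 library lay above all Col-0 libraries, and only replicate 2 overlapped the ka120 range. SAG101, another partner of EDS1, had 18.0, 30.5 and 23.8 CPM in ka120 pad4 and 7.49, 8.24 and 6.64 CPM in Col-0. The helper receptor gene ADR1-L2 had 81.7, 114 and 94.7 CPM in ka120 pad4 and 20.8, 18.6 and 20.3 CPM in Col-0, a log2 fold change of 2.28 ± 0.14, and ADR1-L1 rose by 2.15 on the same scale. The largest change of the list was in AT3G48080, an alpha/beta-hydrolase gene beside EDS1 that was listed as EDS1B. It had 3.98, 14.8 and 7.01 CPM in ka120 pad4 and 1.09, 0.843 and 1.47 CPM in Col-0. Reads of AT3G48080 and EDS1 may be shared. Against ka120, 7 of the 9, PAD4 among them, were lower (3 to 8 with 1 library left out).

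Among TIR-type receptors, 16 of 22 rose and 2 fell, with a median log2 fold change of 0.56. The median was 0.52 with a member at 0 counts in Col-0 set against a floor of 3 counts over the group. SNC1, the receptor whose gain of function gives autoimmunity, was not called against Col-0: it had 205, 226 and 185 CPM in ka120 pad4, 291, 304 and 244 CPM in ka120 and 165, 185 and 178 CPM in Col-0 (0.22 ± 0.097, adjusted p = 0.0841). Its neighbour RPP5 fell (-0.41 ± 0.12), and reads of the near-identical members of this cluster cannot be assigned with certainty. The largest rise was in AT5G41750, a disease resistance gene of the TIR-NBS-LRR class, with 29.1, 64.1 and 40.9 CPM in ka120 pad4 and 2.85, 2.93 and 2.93 CPM in Col-0. WRR4, which confers white rust resistance, had 69.0, 82.7 and 67.7 CPM in ka120 pad4 and 35.3, 37.0 and 35.6 CPM in Col-0. Without ka120 pad4 replicate 2, the library nearest ka120, 12 members of the list were called higher and 4 lower; 1 was lower without Col-0 replicate 2 or ka120 pad4 replicate 3. Of 11 genes on the coiled-coil receptor list, 7 rose, among them RPS2 at 15.7, 21.3 and 15.2 CPM in ka120 pad4 and 5.70, 7.01 and 6.65 CPM in Col-0, and ZAR1 at 126, 198 and 141 CPM in ka120 pad4 and 63.2, 64.9 and 70.0 CPM in Col-0. NDR1, which several coiled-coil receptors need, was not called (0.45 ± 0.29). Against ka120, 13 TIR-type receptors were lower (9 to 16 with 1 library left out). On the coiled-coil list 5 were lower than in ka120 (0 to 6) and 6 were not called.

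Of 12 tested genes of salicylic acid synthesis and its activation, 5 rose in ka120 pad4 and 2 fell, with a median log2 fold change of 0.033 beside 0.027 for all genes. SARD1, a transcription factor that switches on the isochorismate synthase gene, had 31.6, 75.004 and 45.2 CPM in ka120 pad4, 115, 134 and 69.9 CPM in ka120 and 3.65, 4.13 and 4.96 CPM in Col-0. Its log2 fold change against Col-0 was 3.57 ± 0.34 (adjusted p = 7.61e-06), and that of its paralogue CBP60G was 3.44 ± 0.38. EDS16, which encodes isochorismate synthase 1, had 26.4, 68.7 and 32.5 CPM in ka120 pad4, 125.2, 123 and 88.8 CPM in ka120 and 12.8, 13.5 and 13.5 CPM in Col-0 (1.68 ± 0.299 against Col-0). EDS5, the chloroplast exporter of the route, rose by 1.93, and PBS3, which conjugates isochorismate with glutamate, had 7.40, 32.0 and 14.0 CPM in ka120 pad4, 91.8, 102 and 59.9 CPM in ka120 and 3.68, 4.67 and 4.68 CPM in Col-0. The other tested members were the paralogue ICS2, which fell (-1.396 ± 0.38, at 0.816, 0.539 and 0.768 CPM in ka120 pad4 and 1.99, 2.11 and 1.503 CPM in Col-0), PAL3, which fell (-0.63 ± 0.12), and EPS1, AT5G62570, PAL1, PAL2 and PAL4, none of them called. Leaving out any 1 library kept the count of higher members at 5.

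Of 6 tested genes of salicylic acid turnover, 3 rose and 0 fell (1 fell without ka120 pad4 replicate 1). DMR6, a salicylic acid hydroxylase, had 131, 249 and 146 CPM in ka120 pad4, 483, 529 and 309.5 CPM in ka120 and 7.89, 11.1 and 8.68 CPM in Col-0 (4.25 ± 0.304 against Col-0, adjusted p = 9.51e-07). AT4G10500, an oxygenase gene of the same superfamily, had 4.34, 25.4 and 7.84 CPM in ka120 pad4, 72.0, 83.0 and 42.0 CPM in ka120 and 0.195, 0.202 and 0.411 CPM in Col-0. UGT76B1, a glucosyltransferase of defence metabolites, had 0.332, 1.35 and 1.12 CPM in ka120 pad4 and no count in Col-0. Its ratio was 59.8 against an assumed floor of 3 counts over the Col-0 group. Such a ratio takes counts as independent and leaves out replicate spread. UGT74F1, UGT74F2 and BSMT1, which form salicylic acid glucosides and methyl salicylate, were not called.

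Of receptors and TGA partners, 11 of 15 rose and 0 fell, with a median of 0.55. Against ka120 5 were lower (2 to 7 with 1 library left out) and 10 were not called. NPR1, the salicylic acid receptor and coactivator, had 32.9, 45.1 and 34.9 CPM in ka120 pad4 and 22.5, 24.9 and 21.1 CPM in Col-0 (0.72 ± 0.14). NIMIN-2, which encodes an NPR1-binding protein, had 4.04, 21.0 and 5.54 CPM in ka120 pad4, 32.0, 44.2 and 12.2 CPM in ka120 and 0.944, 1.42 and 0.992 CPM in Col-0. GRX480, a glutaredoxin that binds TGA factors, rose by 5.44 but stayed low, at 0.719, 1.64 and 3.35 CPM in ka120 pad4 and 0, 0.135 and 0 CPM in Col-0.

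WRKY factors, which bind W boxes, were called higher in 11 of 19 cases and lower in 0. The list median was 2.36, or 2.16 with WRKY38 and WRKY62 set against the floor of 3 counts, and 2.96 in ka120 against Col-0. WRKY51 had 2.42, 7.76 and 3.33 CPM in ka120 pad4, 16.3, 21.6 and 8.96 CPM in ka120 and 0.195, 0.0843 and 0 CPM in Col-0, and its paralogue WRKY50 had 8.64, 27.6 and 10.4 CPM in ka120 pad4, 55.5, 57.4 and 32.1 CPM in ka120 and 0.423, 0.725 and 0.383 CPM in Col-0. WRKY46 rose by 3.79 and WRKY70, a regulator between the salicylic acid and jasmonate branches, by 1.67. WRKY38 was called with 0.0553, 0.606 and 0.0823 CPM in ka120 pad4 and no count in Col-0, a ratio of 16.0 against that floor. That call was lost without ka120 pad4 replicate 2 (adjusted p = 0.208) and without any 1 Col-0 library (adjusted p = 0.1 to 0.108), and also with all libraries and no low-count filter (adjusted p = 0.058). WRKY40 had 5.71, 10.9 and 11.7 CPM in ka120 pad4, 9.38, 11.3 and 4.62 CPM in ka120 and 1.302, 0.742 and 0.978 CPM in Col-0, and its log2 fold change against ka120 was 0.16 ± 0.38. Against ka120, 8 WRKY genes were lower (3 to 11 with 1 library left out).

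PR genes were strongly higher in ka120 pad4 than in Col-0, in most cases at levels between those of Col-0 and ka120. PR1, the usual marker of salicylic acid signalling, had 160.0, 634 and 319.7 CPM in ka120 pad4, 1666, 2005 and 1397 CPM in ka120 and 0, 0.0674 and 0 CPM in Col-0, where all libraries together held 4 counts. Its fitted log2 fold change was 14.01 ± 0.78 against Col-0 (adjusted p = 1.99e-07) and -2.19 ± 0.39 against ka120 (adjusted p = 0.00343). The 3 ka120 pad4 libraries lay above every Col-0 library and below every ka120 library, and among them replicate 1 was lowest and replicate 2 highest. BGL2, the beta-1,3-glucanase also called PR2, had 137, 388 and 168 CPM in ka120 pad4, 952, 943 and 657 CPM in ka120 and 5.27, 4.43 and 4.22 CPM in Col-0. PR5, a thaumatin-like protein gene, had 357, 770.1 and 457 CPM in ka120 pad4, 1046, 1022 and 721 CPM in ka120 and 26.7, 20.8 and 26.4 CPM in Col-0, so replicate 2 reached the lower end of ka120. PR4, a hevein-like chitin-binding protein, had 74.97, 91.5 and 133 CPM in ka120 pad4, 77.9, 97.3 and 56.5 CPM in ka120 and 10.5, 16.5 and 11.9 CPM in Col-0. HCHIB, a basic chitinase, had 2.88, 2.59 and 4.61 CPM in ka120 pad4, 1.53, 2.75 and 1.80 CPM in ka120 and 1.01, 0.792 and 1.13 CPM in Col-0. Neither PR4 nor HCHIB was called against ka120 (0.37 ± 0.23 and 0.73 ± 0.29).

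In total 13 of 14 genes of the PR list rose, a count that held with any 1 library left out, and GRXS13 was not called (0.86 ± 0.48). Their summed level was 1253, 3345 and 1846 CPM in ka120 pad4, 5714, 6181 and 4283 CPM in ka120 and 192, 194 and 298 CPM in Col-0. Other members with large folds were PNP-A, a natriuretic peptide gene (5.22 ± 0.44), and AIG1, a GTP-binding protein gene induced in resistance responses (5.06 ± 0.53). Against ka120 9 members were lower (5 to 11 with 1 library left out, 5 without ka120 replicate 1 or ka120 replicate 2).

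Upstream bases of PNP-A and PR5, called PR list members with large folds that hold a W box (TTGAC) or a TGA element (TGACG), are shown because these letters are the core sequences bound by WRKY and TGA factors. Each run is the 250 bases before the annotated gene start in the RefSeq TAIR10.1 genome, read 5′ to 3′ on the gene's strand, with matches on either strand in capitals. The windows are chr2:8091737-8091986, minus strand for PNP-A and chr1:28177420-28177669, plus strand for PR5.
PNP-A: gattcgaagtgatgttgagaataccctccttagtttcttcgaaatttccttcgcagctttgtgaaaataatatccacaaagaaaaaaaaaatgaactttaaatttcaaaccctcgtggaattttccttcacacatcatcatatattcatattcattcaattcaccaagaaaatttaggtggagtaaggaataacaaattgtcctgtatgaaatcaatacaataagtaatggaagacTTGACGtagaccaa
PR5: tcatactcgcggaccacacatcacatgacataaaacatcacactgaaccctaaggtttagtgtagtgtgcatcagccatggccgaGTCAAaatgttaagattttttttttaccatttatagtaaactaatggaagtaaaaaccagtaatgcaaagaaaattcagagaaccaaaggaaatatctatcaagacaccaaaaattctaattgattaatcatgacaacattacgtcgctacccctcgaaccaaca
PR5 held 1 W box, on the opposite strand, and in PNP-A a W box and a TGA element overlapped in one run of capitals. A W box stood in 6 of the 14 PR list windows (42.9%) and a TGA element in 5 (35.7%), against 44.8% and 19.2% of all 22111 windows of tested genes.

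On the list of N-hydroxypipecolic acid synthesis and other systemic resistance genes, 5 of 6 rose. For synthesis, the aminotransferase gene ALD1 had 0.111, 0.889 and 1.62 CPM in ka120 pad4, 3.85, 5.22 and 2.17 CPM in ka120 and 0, 0.0674 and 0 CPM in Col-0, and the monooxygenase gene FMO1 had 0.443, 2.80 and 1.18 CPM in ka120 pad4, 4.64, 5.43 and 2.75 CPM in ka120 and 0, 0 and 0.0709 CPM in Col-0. Both were low, and replicate 1 was the lowest ka120 pad4 library in each. Against ka120 2 of the 6 members were lower (1 to 3 with 1 library left out) and 4 were not called. Among those not called was AZI1, which encodes a lipid-transfer-like protein of systemic priming. Its level was 13.3, 11.6 and 17.7 CPM in ka120 pad4, 16.4, 16.7 and 12.6 CPM in ka120 and 0.391, 0.539 and 0.354 CPM in Col-0, so the mutants overlapped and both lay far above Col-0 (5.05 ± 0.25 against Col-0, adjusted p = 1.02e-07). DIR1, a lipid transfer protein gene, was not called (0.33 ± 0.13).

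**Figure D2:**
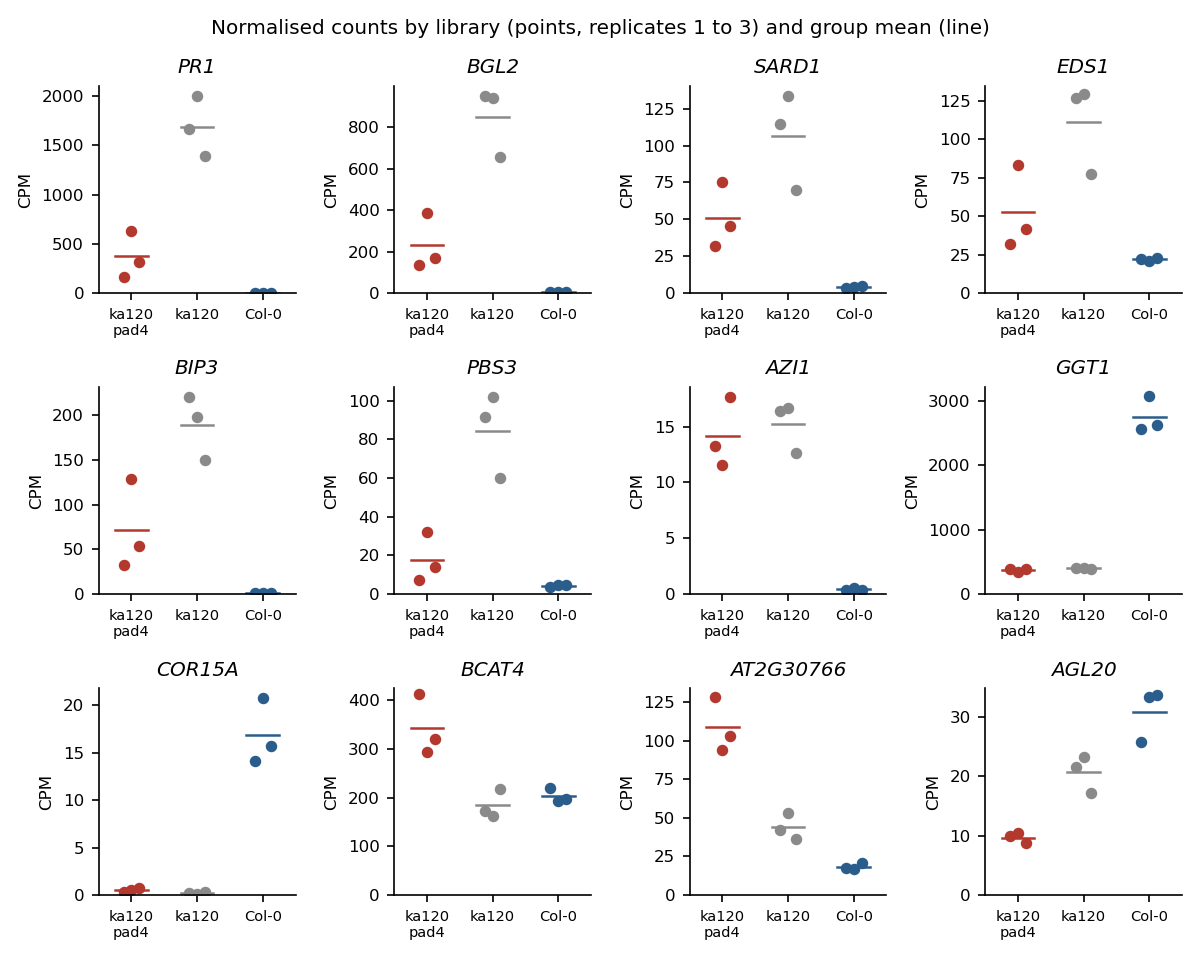
Normalised counts (CPM, linear axes from 0) of 12 genes in the 3 libraries of ka120 pad4 (red), ka120 (grey) and Col-0 (blue), with the group mean as a line. PR1, BGL2, SARD1, EDS1, BIP3 and PBS3 in ka120 pad4 lie between Col-0 and ka120 on average, AZI1 and GGT1 lie at the ka120 level, COR15A is near 0 in both mutants, and for BCAT4, AT2G30766 and AGL20 the ka120 pad4 libraries lie outside the range of both other groups.

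Transcripts of cell-surface immunity genes changed in part. Of 23 tested genes 13 rose and 2 fell (1 without Col-0 replicate 2 or 3, or ka120 pad4 replicate 1 or 3; median 0.65). Against ka120 7 were lower (1 to 11 with 1 library left out), 1 was higher (0 to 1) and 15 were not called. RLP23, a receptor-like protein that detects microbial peptides, had 40.8, 68.9 and 43.5 CPM in ka120 pad4, 132, 138 and 97.2 CPM in ka120 and 1.69, 2.02 and 2.41 CPM in Col-0, and its adaptor kinase gene SOBIR1 averaged 175 ± 69.7 CPM in ka120 pad4 and 32.0 ± 3.62 CPM in Col-0 (SD, n = 3 each). The flagellin receptor gene FLS2 rose by 0.57 and the coreceptor gene BAK1 by 0.57. RBOHD, the main oxidase of the immune oxidative burst, was not called (0.13 ± 0.076), and RBOH F fell (-0.67 ± 0.12). Receptor kinases of the cysteine-rich and wall-associated families rose in 17 of 22 cases with a median of 2.79. CRK6 had 33.9, 88.0 and 44.0 CPM in ka120 pad4, 144, 140.0 and 87.2 CPM in ka120 and 2.02, 1.69 and 2.98 CPM in Col-0, and WAK1, a pectin-binding kinase gene, had 165, 362 and 229 CPM in ka120 pad4, 466, 454 and 324 CPM in ka120 and 37.1, 36.4 and 56.9 CPM in Col-0. CRK21 and CRK22 went the other way: CRK21 had 25.9, 16.4 and 22.1 CPM in ka120 pad4, 11.5, 8.33 and 13.4 CPM in ka120 and 72.9, 88.8 and 70.5 CPM in Col-0. Many CRK genes lie in one tandem cluster, so their reads may be shared.

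Genes that restrain defence and cell death were higher in 9 of 14 cases and lower in none (1 lower without ka120 pad4 replicate 2). Against ka120 6 were lower (1 to 9 with 1 library left out) and 8 were not called. BON1, a copine gene, had 24.9, 36.9 and 25.1 CPM in ka120 pad4 and 11.3, 13.0 and 11.6 CPM in Col-0, and its family member BON3 had 1.85, 2.32 and 1.59 CPM in ka120 pad4 and 0.0651, 0.101 and 0.227 CPM in Col-0. BIR1, a kinase gene that limits cell death, rose by 1.98 and NUDT7, a Nudix hydrolase gene, by 1.46. LSD1, CPR5, CPR1, ACD11 and EDR1 were not called. For camalexin and indole glucosinolates, 8 of 13 rose and 3 fell. The camalexin genes CYP71A13 and PAD3 had 1.05, 2.13 and 6.05 CPM and 0.747, 1.71 and 8.52 CPM in ka120 pad4, against 0.212, 0.0674 and 0.0567 CPM and 0.358, 0 and 0.227 CPM in Col-0. Replicate 3 was the highest of the ka120 pad4 libraries for both, as for PR4 and HCHIB. NAC042, a camalexin regulator gene, rose by 5.74, while the indole glucosinolate genes CYP79B3 (-0.798 ± 0.18), MYB34 (-0.66 ± 0.12) and PEN2 (-0.39 ± 0.099) fell.

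Jasmonate genes showed no common direction, with 3 higher and 4 lower of 21. VSP2, a wound-responsive storage protein gene, had 2.02, 0.821 and 0.617 CPM in ka120 pad4 and 12.8, 18.0 and 8.89 CPM in Col-0 (-3.52 ± 0.403). AOS, the first committed enzyme of jasmonate synthesis, had 65.5, 33.8 and 53.7 CPM in ka120 pad4, 27.5, 39.6 and 25.4 CPM in ka120 and 169, 228 and 171 CPM in Col-0. The repressor gene JAZ1 (1.76 ± 0.31), the lipoxygenase gene LOX4 (1.68 ± 0.23) and OPR3 (0.64 ± 0.23) rose.

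Transcripts of most ER folding genes were higher in ka120 pad4 than in Col-0 and lower there than in ka120. Of 21 tested genes 18 rose, a count that held with any 1 library left out, and the median log2 fold change was 1.37 beside 2.21 in ka120 against Col-0. The lumenal Hsp70 gene BIP3 had 32.5, 128 and 54.1 CPM in ka120 pad4, 220.3, 198 and 149 CPM in ka120 and 0.830, 0.691 and 1.12 CPM in Col-0 (6.33 ± 0.49 against Col-0, adjusted p = 1.67e-06). SHD, the ER member of the Hsp90 family, had 646, 1229.8 and 789 CPM in ka120 pad4, 1720.1, 1715 and 1293 CPM in ka120 and 289, 315 and 329 CPM in Col-0. In both genes every ka120 pad4 library lay above Col-0 and below ka120, with replicate 1 lowest. BIP3 was called lower than in ka120 (-1.403 ± 0.37, adjusted p = 0.0199). That call was lost without ka120 pad4 replicate 3 (adjusted p = 0.0832), ka120 replicate 1 (adjusted p = 0.0722) or ka120 replicate 2 (adjusted p = 0.0638). With all their libraries, a fit to only ka120 pad4 and ka120 lost it as well (adjusted p = 0.0799). ATERDJ3A, a J-domain cochaperone gene next to AT3G08960, had 12.3, 24.5 and 17.38 CPM in ka120 pad4, 51.2, 48.0 and 35.1 CPM in ka120 and 2.41, 2.83 and 2.76 CPM in Col-0. The lectin chaperone genes CNX1 (1.51 ± 0.16) and CRT3 (1.58 ± 0.25) and the disulfide isomerase genes PDIL1-2 (1.89 ± 0.22) and PDIL1-1 (1.68 ± 0.22) rose as well. BZIP60, a transcription factor of the unfolded protein response, rose by 1.23 and BZIP28 by 0.36, while the sensor kinase genes IRE1A (0.26 ± 0.12) and IRE1-1 (0.11 ± 0.092) were not called. EBS1, the glucosyltransferase that retains misfolded glycoproteins, was the single member called lower, at 40.7, 50.3 and 41.0 CPM in ka120 pad4, 60.5, 62.6 and 61.0 CPM in ka120 and 57.5, 58.4 and 58.1 CPM in Col-0; with library totals alone no member was called lower. Against ka120, 19 were lower (12 to 20 with 1 library left out, 12 without ka120 pad4 replicate 3, ka120 replicate 1 or ka120 replicate 2).

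The upstream sequences of the ER folding genes with the largest folds that hold an ER stress response element are given because 7 of the 21 windows of this list hold that motif. The element searched was CCAAT and CACG separated by 10 bases, on both strands; its fixed letters are in capitals and the 10 spacer bases in lower case. Coordinates are chr1:2931851-2932100, minus strand for BIP3, chr1:29126398-29126647, plus strand for PDIL1-2 and chr1:7645360-7645609, plus strand for PDIL1-1.
BIP3: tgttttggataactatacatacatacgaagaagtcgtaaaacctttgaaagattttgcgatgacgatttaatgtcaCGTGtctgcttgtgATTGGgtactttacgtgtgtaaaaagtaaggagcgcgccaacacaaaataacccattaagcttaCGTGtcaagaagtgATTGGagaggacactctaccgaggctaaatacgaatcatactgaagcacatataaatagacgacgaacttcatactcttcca
PDIL1-2: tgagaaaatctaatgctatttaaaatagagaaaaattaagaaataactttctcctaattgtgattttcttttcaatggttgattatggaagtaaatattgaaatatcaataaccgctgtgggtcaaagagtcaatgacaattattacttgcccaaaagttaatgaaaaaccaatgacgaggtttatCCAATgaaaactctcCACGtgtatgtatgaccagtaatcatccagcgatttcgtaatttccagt
PDIL1-1: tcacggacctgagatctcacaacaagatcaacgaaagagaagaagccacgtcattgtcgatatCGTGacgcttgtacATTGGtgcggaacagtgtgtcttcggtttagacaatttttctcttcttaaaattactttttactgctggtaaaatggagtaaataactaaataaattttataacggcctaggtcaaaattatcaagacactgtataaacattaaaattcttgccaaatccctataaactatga
BIP3 held 2 elements, PDIL1-2 held 1 and PDIL1-1 held 1; those of BIP3 and PDIL1-1 read on the opposite strand. The element stood in 7 of 21 windows of the ER list (33.3%), against 185 of 22111 windows of all tested genes (0.837%). Among all genes called higher in ka120 pad4 the share was 0.937%, and among those called lower 0.883%.

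**Figure D3:**
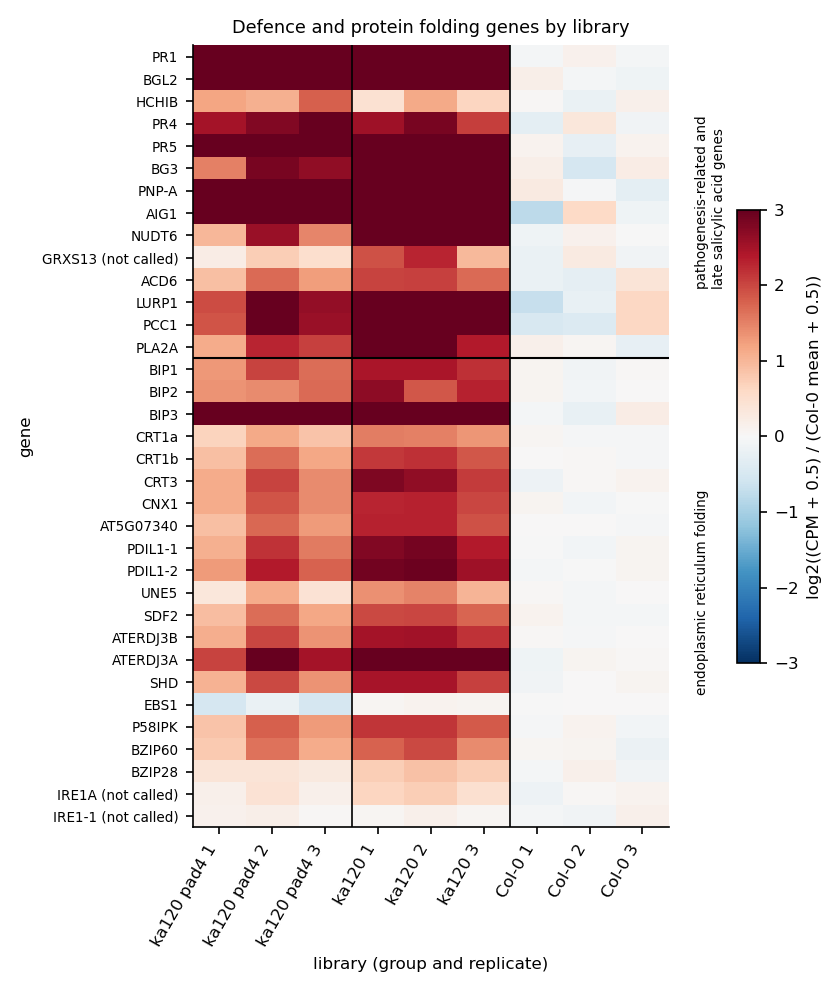
Level of each PR list and ER folding gene (rows) in each library (columns, replicates 1 to 3 of ka120 pad4, ka120 and Col-0) as log2 of CPM plus 0.5 over the Col-0 mean plus 0.5; colours saturate at 3 on either side of 0. In most rows ka120 pad4 replicate 2 is the darkest and replicate 1 the palest of the 3 double mutant libraries, and 13 of 14 PR list genes and 18 of 21 ER genes were called higher against Col-0.

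Genes of the light reactions were lower in ka120 pad4. All 29 of 29 tested members of the light-harvesting and photosystem list fell, with a median log2 fold change of -0.85, beside -1.12 in ka120 against Col-0. Their summed level was 79458, 68502 and 75972 CPM in ka120 pad4, 60774, 59615 and 67105 CPM in ka120 and 128222, 140736 and 128193 CPM in Col-0. Replicate 2 of ka120 pad4 was the lowest of its group and still above all ka120 libraries. LHCB2.3, an antenna protein gene of photosystem II, had 705, 424 and 617 CPM in ka120 pad4, 459.7, 386 and 599 CPM in ka120 and 1686, 2008 and 1802 CPM in Col-0. PSBQ-2, an oxygen-evolving complex gene, had 689, 615 and 654 CPM in ka120 pad4, 585, 446 and 651 CPM in ka120 and 2062, 1945 and 1705 CPM in Col-0. With library totals alone the list median was -0.61. In the Calvin cycle list 13 of 15 fell and none rose (median -0.56), among them SBPASE (-1.02 ± 0.084) and GAPB (-0.99 ± 0.073). RBCS1A, a small subunit gene of Rubisco, was not called (19062, 15789 and 18363 CPM in ka120 pad4 and 19546, 20143 and 19669 CPM in Col-0), nor was RBCS1B; reads of these paralogues may be shared. Against ka120, 19 of the light reaction genes were higher (5 to 23 with 1 library left out) and 10 of the Calvin cycle genes (7 to 14).

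Cold and abscisic acid genes fell in 11 of 21 cases and rose in none (median -0.702). COR15A, a chloroplast protein gene of cold acclimation, had 0.360, 0.539 and 0.713 CPM in ka120 pad4, 0.235, 0.138 and 0.364 CPM in ka120 and 14.2, 20.8 and 15.8 CPM in Col-0 (-4.97 ± 0.46, adjusted p = 5.52e-06). Both mutants were near 0 for it and far from all Col-0 libraries. The dehydrin gene RAB18 had 8.88, 10.8 and 12.1 CPM in ka120 pad4, 8.37, 10.2 and 7.59 CPM in ka120 and 23.2, 27.0 and 20.9 CPM in Col-0. Other members that fell were COR15B (-1.83 ± 0.31) and RD26 (-1.14 ± 0.28), a NAC factor gene. In this list the median in ka120 against Col-0 was -0.64.

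Aliphatic glucosinolate genes, which make the sulfur-rich defence compounds derived from methionine, were higher in ka120 pad4 than in ka120 in nearly every case. Against Col-0, 6 of 18 rose and 1 fell (median 0.17), while in ka120 against Col-0 1 rose and 13 fell (median -0.66). In the direct comparison 17 of 18 were higher in ka120 pad4 than in ka120 (15 to 18 with 1 library left out), with a median of 0.82. BCAT4, the aminotransferase that starts side-chain elongation, had 412, 293 and 320.4 CPM in ka120 pad4, 173, 162 and 217 CPM in ka120 and 219, 192 and 196 CPM in Col-0. CYP79F1, the cytochrome P450 that begins core synthesis, had 464, 309.7 and 360.3 CPM in ka120 pad4, 200.4, 169 and 235 CPM in ka120 and 269, 213 and 239 CPM in Col-0. For both genes the ka120 pad4 libraries lay above all libraries of the other 2 groups. The regulator gene MYB76 had 10.5, 6.10 and 6.35 CPM in ka120 pad4, 2.43, 1.80 and 3.35 CPM in ka120 and 4.12, 3.27 and 2.72 CPM in Col-0, whereas the regulator gene MYB28 fell against Col-0 (-0.34 ± 0.081) and rose against ka120 (0.52 ± 0.081). GSTF11, a glutathione transferase gene of the core pathway, had 28.0, 17.7 and 19.8 CPM in ka120 pad4, 6.39, 7.33 and 10.4 CPM in ka120 and 23.1, 19.7 and 18.5 CPM in Col-0, so its ka120 pad4 and Col-0 levels overlapped. The count against Col-0 depended on scaling: with library totals alone 11 members were higher and 0 lower.

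Among iron genes several regulators rose, and the called falls included the ferritin genes FER3 and FER4 and the reductase gene FRO2. In leaves short of iron, bHLH factors of subgroup Ib and the regulators PYE and BTS are typically induced and ferritin genes reduced. Of 17 tested genes 10 rose and 4 fell (median 1.02), and the median in ka120 against Col-0 was 0.37. BHLH100 had 6.04, 1.75 and 2.13 CPM in ka120 pad4, 0.188, 0.256 and 0.0454 CPM in ka120 and no count in Col-0. Its ratio to Col-0 was 209.7 against the assumed floor of 3 counts over the group. PYE had 14.8, 12.1 and 13.4 CPM in ka120 pad4, 8.12, 10.3 and 9.499 CPM in ka120 and 5.37, 5.43 and 6.52 CPM in Col-0, and BTS, an iron-binding ubiquitin ligase gene, had 158, 103 and 114 CPM in ka120 pad4, 76.6, 88.1 and 84.0 CPM in ka120 and 64.9, 64.8 and 64.8 CPM in Col-0. The groups did not overlap for either gene. AT2G30766, which the reference leaves unnamed, had 129, 93.9 and 103 CPM in ka120 pad4, 41.9, 53.0 and 36.6 CPM in ka120 and 17.7, 16.9 and 20.6 CPM in Col-0 (2.56 ± 0.16 against Col-0 and 1.31 ± 0.16 against ka120). AT1G47400, also unnamed, had 6.67, 4.66 and 5.18 CPM in ka120 pad4, 0.752, 1.51 and 1.09 CPM in ka120 and 1.76, 0.978 and 1.70 CPM in Col-0.

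OPT3, the phloem transporter gene that reports shoot iron status, had 289, 220.1 and 248 CPM in ka120 pad4 and 132, 117 and 162 CPM in Col-0. The ferritin genes FER3 (-0.68 ± 0.13) and FER4 (-0.83 ± 0.11) fell, and FER1 was not called against Col-0 (-0.65 ± 0.27) but was lower than in ka120 (-1.201 ± 0.27). FRO2, the ferric reductase best known from roots, fell (-1.77 ± 0.28), and the root iron transporter gene IRT1 was at 0 in all libraries of the 3 groups. The rise of bHLH39 was lost without ka120 pad4 replicate 1 (adjusted p = 0.083), the highest of 3 libraries at 3.26, 0.283 and 0.837 CPM. Against ka120, 8 iron genes were higher and 2 lower (6 to 8 higher with 1 library left out).

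**Figure D4:**
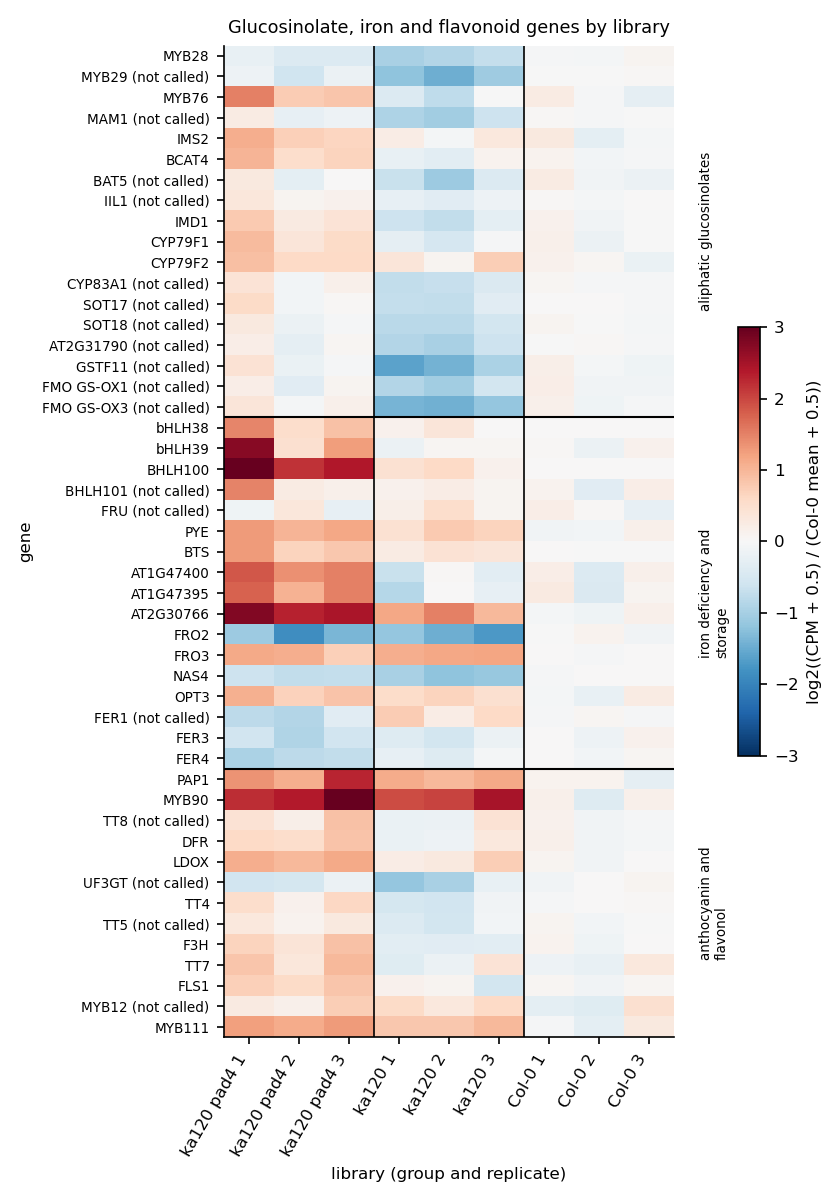
Level of each aliphatic glucosinolate, iron and flavonoid gene (rows) in each library (columns, replicates 1 to 3 of ka120 pad4, ka120 and Col-0) as log2 of CPM plus 0.5 over the Col-0 mean plus 0.5; colours saturate at 3 on either side of 0. Glucosinolate rows are mostly red or pale in ka120 pad4 and blue in ka120, and in the direct comparison 17 of 18 were higher in ka120 pad4; BHLH100 and AT2G30766 are dark red in all 3 ka120 pad4 libraries.

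Flavonoid genes rose in 9 of 13 cases and fell in none (median 0.67, beside -0.001 in ka120 against Col-0). The anthocyanin regulator gene PAP1 had 9.68, 7.99 and 18.9 CPM in ka120 pad4, 8.13, 7.26 and 8.24 CPM in ka120 and 3.81, 3.81 and 2.82 CPM in Col-0, and its paralogue MYB90 rose by 3.57. LDOX, a late enzyme of the pathway, had 84.9, 78.2 and 87.9 CPM in ka120 pad4, 46.2, 48.4 and 66.5 CPM in ka120 and 41.9, 36.9 and 39.6 CPM in Col-0. The flavonol regulator gene MYB111 rose by 1.33. Against ka120, 6 were higher (4 to 8 with 1 library left out), among them F3H (0.99 ± 0.13) and FLS1 (0.799 ± 0.16), both enzymes of flavonoid synthesis.

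Among clock genes 3 of 11 rose and 5 fell. The morning factor CCA1 had 222, 178 and 208 CPM in ka120 pad4 and 351, 363 and 358 CPM in Col-0, and the evening gene GI had 29.2, 25.5 and 28.8 CPM in ka120 pad4 and 14.0, 13.8 and 16.0 CPM in Col-0; the labels give no time of day for sampling. In the flowering list FLC, the floral repressor, had 12.5, 10.9 and 16.7 CPM in ka120 pad4, 8.70, 4.96 and 7.19 CPM in ka120 and 5.52, 8.04 and 4.07 CPM in Col-0. AGL20, the floral activator also called SOC1, had 9.89, 10.4 and 8.70 CPM in ka120 pad4, 21.6, 23.3 and 17.3 CPM in ka120 and 25.7, 33.4 and 33.7 CPM in Col-0, with no overlap between any of the 3 groups. The call of FLC against ka120 was lost without ka120 pad4 replicate 3 (adjusted p = 0.0861) and without ka120 replicate 2 (adjusted p = 0.0856).

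Senescence markers were mixed, 2 higher and 5 lower of 9. SAG13, also a marker of cell death, had 43.5, 71.7 and 103 CPM in ka120 pad4, 88.1, 159.5 and 129.6 CPM in ka120 and 1.81, 7.37 and 2.23 CPM in Col-0. NAP, a NAC factor that drives leaf senescence, had 3.60, 3.43 and 2.24 CPM in ka120 pad4, 8.48, 9.86 and 5.57 CPM in ka120 and 10.8, 12.9 and 14.6 CPM in Col-0. The count of lower members was 3 without Col-0 replicate 1, Col-0 replicate 2 or any 1 ka120 pad4 library. ARD3, the methionine salvage dioxygenase gene, had 3.76, 22.8 and 5.20 CPM in ka120 pad4, 89.0, 106 and 74.9 CPM in ka120 and 1.53, 1.23 and 1.76 CPM in Col-0; replicate 2 stood well above the other 2 ka120 pad4 libraries.

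Nuclear transport genes rose in 4 and fell in 5 of 16, but with library totals alone 11 rose and 2 fell, and 2 rose without Col-0 replicate 1 or ka120 pad4 replicate 2. These were 25% higher and 31.2% lower, beside 21.6% and 20.3% of all tested genes. The falls include AT3G08960, the mutated locus itself. Among the other called members of this list MOS6, an importin-alpha gene, had 37.4, 44.2 and 43.2 CPM in ka120 pad4 and 31.1, 25.8 and 30.5 CPM in Col-0. DNA replication genes rose in 4 of 12 cases (2 without ka120 pad4 replicate 3, 10 with library totals alone), by at most 0.37 in MCM3. In the cell wall growth list 4 rose and 5 fell of 11, with 2 rises without ka120 pad4 replicate 2. Heat shock genes gave 1 rise, HSP90.1 (1.27 ± 0.15), and 1 fall, HSP18.2 (-1.55 ± 0.42), of 8, with 2 rises without Col-0 replicate 2. With library totals alone 5 jasmonate genes, 1 cold gene, 3 heat shock genes and 5 methionine salvage genes rose, and 3 clock, 3 cell wall growth, 2 senescence and 1 methionine salvage genes fell. In the methionine salvage list 3 rose and 2 fell of 9; 1 fell without Col-0 replicate 1, Col-0 replicate 2 or ka120 pad4 replicate 1. Common reference genes were not all level: PP2AA3 had 44.3, 44.3 and 42.7 CPM in ka120 pad4 and 61.4, 70.3 and 66.3 CPM in Col-0, and ACT2 fell by 0.21 on the log2 scale but had a change of 0.033 with library totals alone.

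Across all genes, the rule for named genes required no overlap between ka120 pad4 and Col-0 libraries and at least 5 CPM in the higher group. The 10 largest rises were led by PR1. AT2G06185 followed, with 9.003, 27.4 and 12.2 CPM in ka120 pad4 and 2 counts in all in Col-0. Its ratio was 1558 (95% counting interval 431 to 12870), an interval that takes counts as independent and leaves out replicate spread. Next came AT3G28510, a P-loop hydrolase gene (8.27 ± 0.700), AT2G44240 (8.08 ± 0.64), MDHAR, which regenerates ascorbate (7.31 ± 0.48), and AT5G51465 (7.18 ± 0.62). The others were cwINV6, a fructan exohydrolase gene (6.78 ± 0.42), AT3G48640 (6.604 ± 0.45), AT1G51860, a leucine-rich repeat kinase gene (6.48 ± 0.400), and BIP3. MDHAR had 7.14, 11.5 and 11.9 CPM in ka120 pad4, 31.9, 41.9 and 22.7 CPM in ka120 and 0.130, 0 and 0.0567 CPM in Col-0. The 10 largest falls were COR15A, AT1G29600, AT2G29170, AT4G25780, AT1G14250, AT4G36850, AT1G53875, DR4, VSP2 and CIPK20, with log2 fold changes of -4.97 to -3.39. CIPK20, a kinase gene, had 6.20, 3.80 and 5.18 CPM in ka120 pad4, 3.26, 3.54 and 2.64 CPM in ka120 and 45.2, 62.0 and 51.5 CPM in Col-0.

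A class of genes in ka120 pad4 stayed within 1 log2 unit of the ka120 level. It was defined as a called change of at least 2-fold against Col-0 with a 95% interval against ka120 within 1 log2 unit of 0. Genes called different from ka120 were not left out, so members may differ from it by less than 2-fold. The class held 672 genes, 265 higher and 407 lower, of 7382 called genes that met the rule above. Among the higher ones were AZI1, WRKY40, AT1G76960, AT3G45730 and AT4G08555; AT1G76960 had 134, 289 and 165 CPM in ka120 pad4, 267, 266 and 251 CPM in ka120 and 6.84, 6.27 and 9.90 CPM in Col-0. Among the lower ones GGT1, the photorespiratory glutamate:glyoxylate aminotransferase gene, had 392, 343 and 383 CPM in ka120 pad4, 409, 409.9 and 393 CPM in ka120 and 2559, 3082 and 2622 CPM in Col-0 (-2.89 ± 0.083 against Col-0, adjusted p = 2.98e-09; -0.12 ± 0.077 against ka120). FBA5, an aldolase gene, had 69.0, 38.6 and 51.3 CPM in ka120 pad4, 42.3, 34.1 and 47.8 CPM in ka120 and 409.8, 467 and 408 CPM in Col-0. The other largest falls of the class were AT1G53875, AT2G15020 (-3.08 ± 0.22) and AT3G08960. Since ka120 pad4 libraries enter both conditions, membership is a description of the levels.

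In all 22 genes lay beyond ka120, with at least 2-fold called changes in the same direction against both Col-0 and ka120, 16 higher and 6 lower. The higher ones included AT2G14247 (8.71, 4.52 and 4.03 CPM in ka120 pad4, 0.305, 0.426 and 0.704 CPM in ka120 and 0.195, 0.0674 and 0.0567 CPM in Col-0) and AT5G51440, a small chaperone gene (13.3, 13.5 and 19.9 CPM in ka120 pad4, 7.42, 6.27 and 9.14 CPM in ka120 and 1.43, 1.48 and 0.936 CPM in Col-0). PHI-1 (3.13 ± 0.47 against Col-0), AT2G30766 and DREB26, a transcription factor gene (2.54 ± 0.27), followed. The call of PHI-1 against ka120 was lost without ka120 pad4 replicate 3 (adjusted p = 0.0638) or ka120 replicate 2 (adjusted p = 0.0674). With all their libraries, a fit to only ka120 pad4 and ka120 lost it as well (adjusted p = 0.0562). The call of DREB26 against ka120 was lost without ka120 replicate 2 (adjusted p = 0.0509). The lower ones included AT4G36850 (0.691, 0.485 and 0.247 CPM in ka120 pad4, 1.95, 2.12 and 2.4997 CPM in ka120 and 5.42, 9.63 and 7.202 CPM in Col-0), NAP, AT5G19120, AGL20 and AT1G23390. Of genes changed at least 4-fold in ka120, 4 were back near Col-0 in ka120 pad4, with a 95% interval against Col-0 within 1 log2 unit of 0. XTH10, a xyloglucan-modifying enzyme gene beside PR1, had 1.27, 1.87 and 1.36 CPM in ka120 pad4, 5.496, 10.9 and 2.55 CPM in ka120 and 2.08, 1.43 and 0.978 CPM in Col-0. The other 3 were AT2G01010, the RNA gene ENSRNA049494572 and the ribosomal protein gene AT1G08360. For these the ka120 libraries stood apart from every other library. AT2G01010 had 0.0830, 0.108 and 0.0686 CPM in ka120 pad4, 424, 429 and 400.1 CPM in ka120 and 0.0977, 0.118 and 0.113 CPM in Col-0. ENSRNA049494572 had 568, 604 and 573 CPM in ka120 pad4, 0.0822, 0.0852 and 0.0682 CPM in ka120 and 1006, 697 and 679 CPM in Col-0. Whether these 3 differences reflect genotype or the processing of the ka120 libraries was not tested. Every count and class against ka120 rests on the same libraries, so the same limit applies to them.

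Over all windows of 250 bases, a W box stood before 49.3% of genes called higher in ka120 pad4, 41.3% of those called lower and 44.8% of all tested genes. For genes called higher by at least 2-fold it was 56.3%, and for those lower by at least 2-fold 41.9%. A TGA element, which shares TGAC with the W box, was found for 20.6% of higher, 18.6% of lower and 19.2% of all genes. The evening element (AAAATATCT), a clock motif, was found for 2.5%, 2.74% and 2.37%. A match is a description of the letters and not a bound site. Of genes near the mutated loci, those called were 212 of 491 genes (43.2%) within 1 Mb of PAD4 and 244 of 546 (44.7%) within 1 Mb of AT3G08960, against 41.7% on chromosome 3 and 42.0% in all.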

How the data were processed

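RNA was measured in 12 strand-specific mRNA libraries of rosette leaves, sequenced as paired reads of 150 bases. Per the submitters' processing notes the tools included HTSeq 0.6.1p1 and HISAT2 2.0.4, with the TAIR10 build; their roles and settings are not given there. The raw table that the authors deposited was handled like estimated counts per gene: all values were whole, but 45.7% to 48.1% of low values were multiples of 4, for a reason not known here. The authors' log2 table was not used. For genes with many counts, counting error is small at these totals, and replicate spread limits the precision. For genes with few or no counts in a group, such as PR1, AT2G06185 and WRKY38 in Col-0, counting error is large.

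edgeR 4.0.16 in R 4.3.3 gave quasi-likelihood tests with TMM factors and the default low-count filter, in 1 model of 4 genotypes over 12 libraries with 8 residual degrees of freedom. Genes were called at a Benjamini-Hochberg adjusted p under 0.05. Errors beside log2 fold changes are approximate standard errors, the absolute change over the square root of F. The script was tested on simulated data. Alternatives were DESeq2 1.42.0, other scaling and filters, a fit to 2 groups only, a replicate block and leaving out each library.

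Symbols, coordinates and the bases before each gene start came from RefSeq TAIR10.1, whose nuclear chromosomes have the lengths of TAIR10; 32548 identifiers matched and 1714 did not. The 30 lists, the markers and the rule for named genes (the 10 largest changes each way, 5 each way per class and the 4 largest called per list, with PAD4, EDS1, SNC1, AT3G08960 and PR1) were chosen with earlier results of these data known. Further list members are named as examples or exceptions, chosen after their values were seen. Part of the upstream sequence is not reported here.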

Additional observations from a re-analysis of the deposited data

How the results depend on the processing

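In ka120 pad4 against Col-0, counts of genes called higher and lower stayed within 1.5 times of 4831 and 4547 under every setting run except library totals alone, with which 9336 were higher, 2286 lower and 519 lower by at least 2-fold. The same setting, added after the data were seen, gave 10754 higher, 3091 lower and 861 lower by at least 2-fold in ka120 against Col-0, and 2909 lower in ka120 pad4 against ka120. A fit to only ka120 pad4 and ka120 called 1329 higher between them. Leaving out 1 library at a time gave 1059 to 2520 higher, 826 to 2244 lower, 85 to 257 higher by at least 2-fold and 271 to 701 lower by at least 2-fold in that comparison. Of 147 followed genes called against Col-0, 11 lost the call under at least 1 setting, and ACT2 changed sign (0.033 with library totals alone). Of 78 called against ka120, 32 lost it. With windows of the nearer bases only, a W box stood before 26.7% of all, 31.7% of higher and 24.4% of lower genes, a TGA element before 11.4%, 12.5% and 11.3%, an evening element before 1.23%, 1.33% and 1.41%, and an ER stress element before 0.611% of all genes. Shares called within 2 Mb of PAD4 and AT3G08960 were 41.8% and 42.3%. Pairing by replicate number was not seen: deviations of same-numbered ka120 pad4 and Col-0 libraries correlated at -0.004, -0.003 and 0.003. Those of same-numbered ka120 pad4 and ka120 libraries correlated at -0.055, 0.078 and -0.033, and those with different numbers at -0.129 to 0.164. Such values cannot show that same-numbered samples were raised or handled apart. With the replicate block, 4825 genes were higher and 4521 lower. Folds of genes with few counts in Col-0, such as WRKY38 and UGT76B1, have large standard errors.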
